A study of Mus musculus with 6 samples.

Results

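Hypoxia response and glycolysis genes were followed in mouse tumor organoids carrying a control guide RNA or a guide aimed at Prkci, which encodes PKC iota, an atypical member of the protein kinase C family. The 33 genes are the members of a list of gene names whose rule uses no measured value, although the list was drawn up with earlier results of these data known, out of 20756 genes in the deposited table. They comprise 2 genes of oxygen sensing (Hif1a and Egln1), 13 targets of the hypoxia-inducible factors, 14 enzymes of glycolysis, and 4 genes of glucose and lactate transport and glycolytic control (Slc2a1, Slc16a3, Pfkfb3 and Pfkfb4). All 33 were found in the table and all 33 passed the filter on low values, at least 1 CPM (reads scaled to a common library total) in at least 3 of the 6 libraries.

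The organoids came from C57BL/6 mouse tumor tissue, an intestinal tumor that had spread to the liver, and the labels name small intestine as the tissue. One group carried sgScr (spelled sgScbr among the sample labels), a control guide, and the other sgPrkci, with 3 libraries in each. Both groups were plated in basement-membrane extract with EGF at 50 ng/ml, were left untreated and were collected 72 h later. The design calls the conditions normal and the replicates biological, and the oxygen level, the number of clones behind each line, the animal and its alleles, and the position of the guide in Prkci were not given in the sources used here. RNA was read as single-end tags from the 3' ends of transcripts (QuantSeq FWD), so a value is a share of the tags of a library.

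In oxygenated cells, prolyl hydroxylases of the EGLN family mark the alpha subunits of the hypoxia-inducible factors (HIF) for capture by the VHL ubiquitin ligase and destruction. When oxygen is short the alpha subunit persists, pairs with ARNT and binds a short core sequence at genes of vessel growth, glucose uptake, glycolysis and mitochondrial restraint. The alpha subunit is controlled largely as a protein, so its mRNA level is not a measure of HIF activity, and in the intestine the epithelium works under low oxygen as a normal state.

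The core letters ACGTG and GCGTG were searched on both strands in the 300 bases around the RefSeq start of each gene (250 before it and 50 after it, GRCm38.p6), for the 32 members with an entry. The 250 bases before the start are shown 5' to 3' for 5 members the results turn on, 3 that rose (Egln3, Pfkfb3 and Ero1l) and 2 that fell (Slc16a3 and Pfkl), with each match in capitals (CACGT is ACGTG on the other strand). They lie at chr12:54203875-54204124 on the minus strand for Egln3, chr2:11553930-11554179 on the minus strand for Pfkfb3, chr14:45318573-45318822 on the minus strand for Ero1l, chr11:120948817-120949066 on the plus strand for Slc16a3 and chr10:78009808-78010057 on the minus strand for Pfkl.
Egln3: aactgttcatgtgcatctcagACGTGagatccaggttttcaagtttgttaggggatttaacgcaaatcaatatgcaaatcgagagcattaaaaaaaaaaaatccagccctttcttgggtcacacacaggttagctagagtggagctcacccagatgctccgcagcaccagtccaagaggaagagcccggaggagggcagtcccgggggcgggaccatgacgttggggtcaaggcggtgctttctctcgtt
Pfkfb3: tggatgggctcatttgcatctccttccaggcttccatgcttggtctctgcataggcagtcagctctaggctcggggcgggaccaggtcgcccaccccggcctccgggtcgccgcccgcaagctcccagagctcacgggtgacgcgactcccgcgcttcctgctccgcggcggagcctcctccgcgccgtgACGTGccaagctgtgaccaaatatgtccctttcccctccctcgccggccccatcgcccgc
Ero1l: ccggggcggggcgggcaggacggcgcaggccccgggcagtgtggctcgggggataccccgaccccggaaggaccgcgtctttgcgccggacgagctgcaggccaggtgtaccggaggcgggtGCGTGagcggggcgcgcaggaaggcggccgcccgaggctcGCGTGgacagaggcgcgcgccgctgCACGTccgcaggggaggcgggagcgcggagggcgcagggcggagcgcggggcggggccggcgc
Slc16a3: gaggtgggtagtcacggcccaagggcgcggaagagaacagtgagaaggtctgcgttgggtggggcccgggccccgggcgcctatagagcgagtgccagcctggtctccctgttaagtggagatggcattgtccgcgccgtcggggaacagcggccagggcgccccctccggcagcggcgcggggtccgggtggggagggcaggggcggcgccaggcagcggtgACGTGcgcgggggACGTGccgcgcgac
Pfkl: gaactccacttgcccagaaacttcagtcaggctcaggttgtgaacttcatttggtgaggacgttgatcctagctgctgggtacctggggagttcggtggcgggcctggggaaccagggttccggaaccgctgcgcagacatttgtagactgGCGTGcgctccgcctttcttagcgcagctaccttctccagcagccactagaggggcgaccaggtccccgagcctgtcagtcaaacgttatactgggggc
The first base of the match lies 229 bases before the start in Egln3, 60 bases before it in Pfkfb3, and 27 and 14 bases before it in Slc16a3. Ero1l holds GCGTG at 128 and 88 bases and ACGTG on the other strand at 63 bases, and Pfkl holds GCGTG alone, at 99 bases. The letters were thus present before the start of members that rose and of members that fell.

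Either form of the core was present in 25 of the 32 member promoters (78.1%), against 5912 of 9060 promoters of tested genes (65.3%). ACGTG alone was present in 18 of 32 (56.25%), against 26.7% of the promoters of tested genes. Since ACGTG is part of the E-box CACGTG, that letter string was counted too, and 9.38% of member promoters and 10.5% of all held it. Among members, ACGTG was present in 7 of 12 targets (58.3%), 6 of 14 enzymes (42.9%) and 3 of the 4 transport and control genes. Over all tested genes with a promoter, ACGTG was present in 24.5% of those that were higher in sgPrkci organoids, 26.6% of those that were lower and 27.0% of those not called. A match is a description of letters, not a binding site, and the members include known HIF genes by choice. The bases after the start used were found in an annotated transcript of the gene for 25 of the 32 members. That start lay 6492 bases from the GENCODE gene start for Hif1a, 5857 for Ankrd37 and 4329 for Ldha, all counted with ACGTG.

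Of the 33 members, 11 were higher and 3 lower in sgPrkci than in sgScr organoids at an adjusted p under 0.05 (limma on log2(CPM + 1), Benjamini-Hochberg over 12195 tested genes). The risers were Hif1a, 6 targets (Egln3, Ndrg1, Ero1l, Mxi1, Ddit4 and Pdk1), the enzymes Hk2 and Aldoa, and Slc2a1 and Pfkfb3. The genes that fell were the enzymes Pfkl and Eno1 and the lactate exporter Slc16a3. The median log2 difference (sgPrkci minus sgScr) was 0.17 over the members and -0.11 over all tested genes. Over all tested genes 31.8% were called, 11.4% higher and 20.5% lower, so the 33.3% of members called higher stands beside 11.4%, and the 9.09% called lower beside 20.5%. The CPM values of the 2 groups did not overlap for 16 members, 13 higher and 3 lower, while over all tested genes 15.9% were apart and higher and 27.1% apart and lower.

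**Figure D1:**
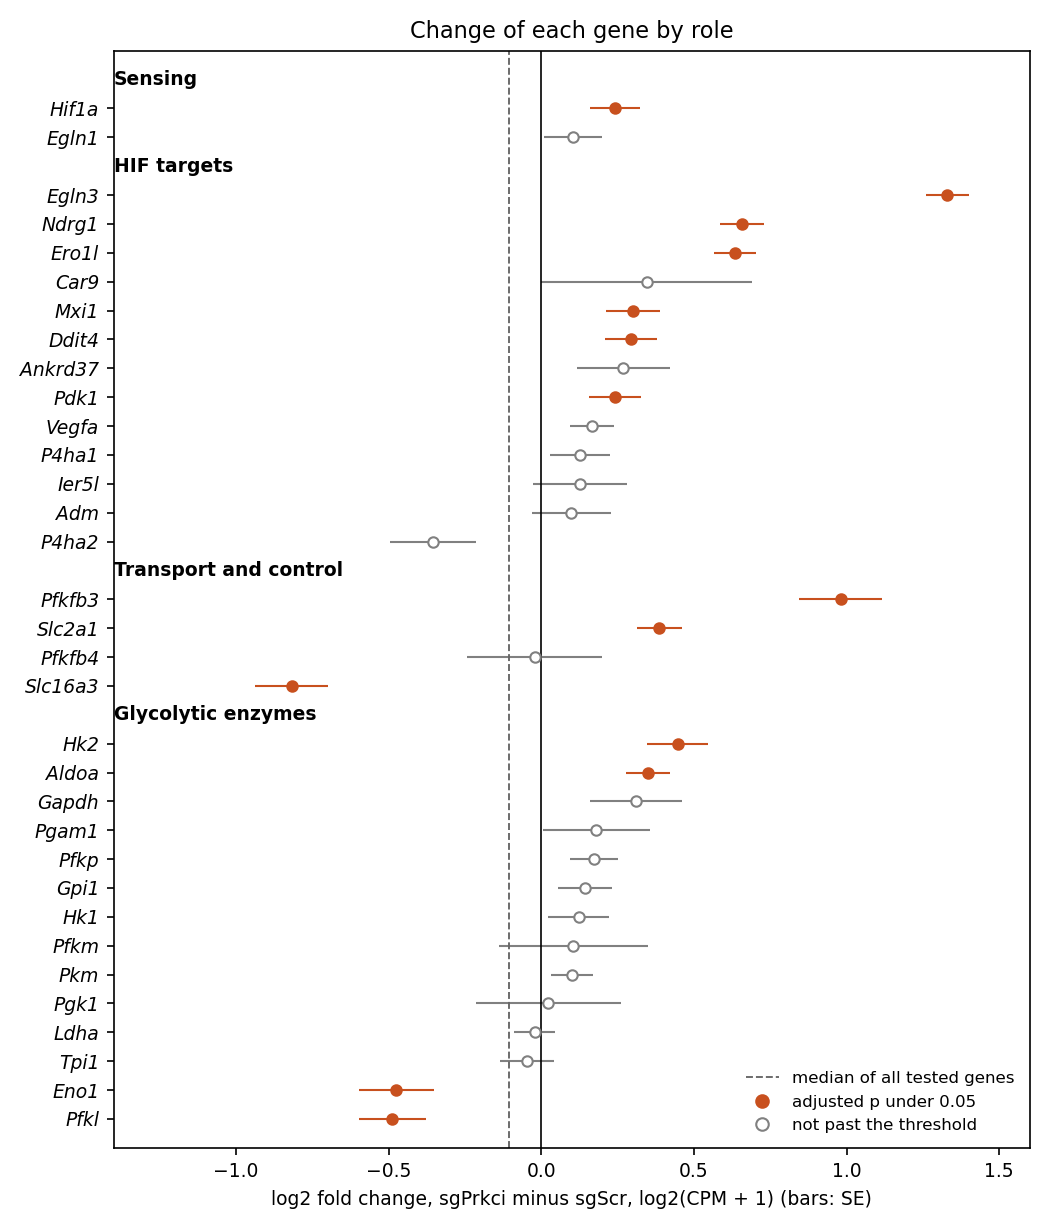
Log2 difference in CPM + 1 (sgPrkci minus sgScr, with its standard error) for the 33 members, by role. The points run from -0.82 for Slc16a3 to 1.33 for Egln3, and those past the adjusted p threshold are drawn apart from the others.

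Hif1a encodes the oxygen-labile HIF-1 alpha subunit (chromosome 12, 73901375 to 73947530, GRCm38). Its values were 269.5, 297.2 and 281.7 CPM in the sgScr libraries and 342.5, 349.3 and 311.5 CPM in the sgPrkci libraries. All 3 sgPrkci libraries were above all 3 sgScr libraries. The log2 difference was 0.24 (SE 0.08, adjusted p = 0.0244). The call was lost without sgScr replicate 1 and without sgPrkci replicate 1 or 2, while the log2 difference stayed between 0.21 and 0.29 with any 1 library left out. The call was also lost with limma fitted without a variance trend or robust moderation (adjusted p = 0.165). With the median of each chromosome removed it was lost too (log2 difference 0.19, adjusted p = 0.0885). Hif1a shares exon sequence on the opposite strand with Gm15283, which had 613 reads against its 5038. It also shares some on the same strand with Gm49321, which is not in the deposited table. Whether counting used the strand was not given. Egln1, the main prolyl hydroxylase acting on HIF alpha in normoxia, had 174.7, 218.2 and 224.7 CPM in sgScr and 208.2, 235.9 and 216.6 CPM in sgPrkci libraries. Its groups overlapped (log2 difference 0.10, adjusted p = 0.44), and the difference was -0.0095 without sgScr replicate 1. Egln1 lies on chromosome 8, whose genes were lower as a group, and with chromosome medians removed the difference was 0.38 and passed (adjusted p = 0.00284).

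Among the 13 targets the largest difference was that of Egln3 (chromosome 12, 54178981 to 54203860), a prolyl hydroxylase that HIF induces and that acts back on HIF alpha. It had 463.3, 461.9 and 464.2 CPM in the sgScr libraries and 1180, 1122 and 1199 CPM in the sgPrkci libraries. The sgScr libraries lay within a few CPM of each other, and every sgPrkci library was far above all of them. The mean rose from 463.1 ± 1.16 to 1167 ± 40.1 CPM (SD, n = 3 each), 2.52-fold, with a log2 difference of 1.33 (SE 0.07, adjusted p = 4.5e-15). Counted from the highest log2 difference, Egln3 was gene 215 of 12195.

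Ndrg1, a stress-induced gene whose mRNA accumulates in low oxygen, had 530.0, 546.6 and 541.8 CPM in sgScr and 887.1, 813.1 and 856.6 CPM in sgPrkci libraries. Ero1l, an oxidase that drives disulfide formation in the endoplasmic reticulum, had 762.0, 711.9 and 725.8 CPM against 1166, 1103 and 1145 CPM. In both genes the sgPrkci libraries were all above the sgScr libraries by far more than the spread within either group. Ndrg1 rose 1.58-fold (log2 difference 0.66, SE 0.07, adjusted p = 2.31e-08) and Ero1l 1.55-fold (0.63, SE 0.07, adjusted p = 2.36e-08). Ndrg1 lies on chromosome 15 (66929318 to 66969640), whose genes were lower as a group, and with the median of each chromosome removed its log2 difference was 1.02. Ero1l lies on chromosome 14 (45283087 to 45318771).

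Mxi1, an antagonist of MYC, had 180.4, 167.3 and 158.8 CPM in sgScr and 208.6, 204.6 and 210.2 CPM in sgPrkci libraries. Ddit4, an inhibitor of mTORC1 signalling, had 275.2, 275.2 and 324.2 CPM against 376.0, 329.3 and 366.9 CPM. Pdk1, which phosphorylates pyruvate dehydrogenase and so keeps pyruvate out of the mitochondrial cycle, had 184.0, 185.7 and 202.0 CPM against 232.3, 220.4 and 223.4 CPM. The groups did not overlap in any of these genes, although the highest sgScr library for Ddit4 (replicate 3) and its lowest sgPrkci library (replicate 2) were close. The log2 differences were 0.30 for Mxi1 (SE 0.09, adjusted p = 0.00879), 0.29 for Ddit4 (SE 0.09, adjusted p = 0.00873) and 0.24 for Pdk1 (SE 0.09, adjusted p = 0.0298). The call on Ddit4 was lost without sgScr replicate 2 or sgPrkci replicate 1, and that on Pdk1 without any single library other than sgScr replicate 3. With limma fitted without a variance trend or robust moderation none of these genes was called. The adjusted p was then 0.0895 for Mxi1, 0.134 for Ddit4 and 0.146 for Pdk1.

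Vegfa, the vessel growth factor, had 522.0, 538.0 and 534.4 CPM in sgScr and 566.1, 620.2 and 604.1 CPM in sgPrkci libraries. The groups did not overlap, but the difference missed the threshold (log2 difference 0.17, SE 0.07, adjusted p = 0.0836). It passed with 4 other scalings or count tests and with chromosome medians removed, at log2 differences of 0.23 to 0.27. With quantile normalization it was 0.089 (adjusted p = 0.393). P4ha2, a collagen prolyl hydroxylase subunit, had 47.3, 59.4 and 75.5 CPM against 46.0, 43.4 and 50.1 CPM. Its groups overlapped through sgScr replicate 1, and it was the one target with a negative log2 difference (-0.35, SE 0.14, adjusted p = 0.0519). Without sgScr replicate 1 that difference was -0.52 and passed, without sgScr replicate 3 it was -0.19 (adjusted p = 0.364), and with the chromosome medians removed it was 0.04, the gene lying on chromosome 11.

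The other 5 targets had overlapping groups and no call. They were Adm, a peptide that widens vessels (log2 difference 0.10, adjusted p = 0.609), and P4ha1, another collagen prolyl hydroxylase subunit (0.13, adjusted p = 0.343). They were also Ankrd37 (0.27, adjusted p = 0.184) and Ier5l (0.13, adjusted p = 0.577). The last was Car9, a cell-surface carbonic anhydrase used as a marker of hypoxic tumor tissue, which was near the limit of detection, with 11 reads over the sgScr and 14 over the sgPrkci libraries (0.35, adjusted p = 0.482). At so few reads only a large difference in Car9 could have been detected, 3 reads being worth 0.984 to 1.40 CPM. With chromosome medians removed Ankrd37, on chromosome 8, had 0.55 (adjusted p = 0.00611) and P4ha1 0.30 (adjusted p = 0.0217), and both passed. Ankrd37 shares exon sequence on the opposite strand with Ufsp2, which had 1474 reads against its 536, and whether counting used the strand was not given.

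**Figure D2:**
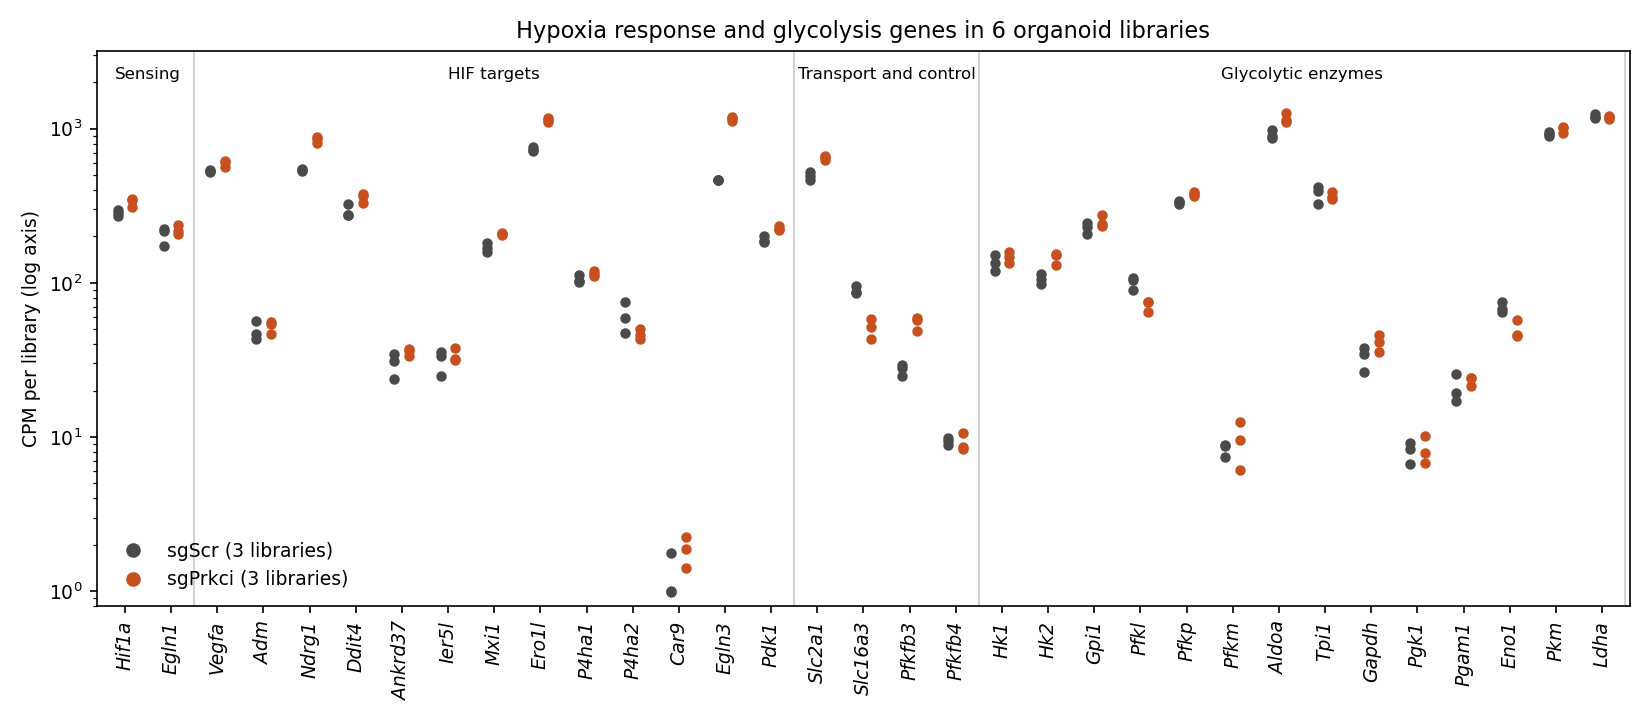
CPM of members in each of the 6 libraries on a log axis, with 3 sgScr and 3 sgPrkci points per gene. The 2 groups stand clearly apart for Egln3, with sgScr at 461.9 to 464.2 and sgPrkci at 1122 to 1199 CPM, and overlap for Ldha.

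Slc2a1 encodes GLUT1, the main basal glucose importer (chromosome 4, 119108711 to 119137983). It had 463.3, 527.2 and 496.1 CPM in sgScr and 661.5, 629.1 and 652.0 CPM in sgPrkci libraries. Every sgPrkci library was above every sgScr library, and the mean rose 1.31-fold (log2 difference 0.39, SE 0.07, adjusted p = 0.000173). Slc16a3 encodes MCT4, which exports lactate from glycolytic cells (chromosome 11, 120948480 to 120960868), and it moved the other way. It had 95.5, 87.6 and 86.1 CPM in sgScr and 58.1, 51.4 and 43.0 CPM in sgPrkci libraries. The groups were apart and the mean fell by a factor of 1.77 (log2 difference -0.82, SE 0.12, adjusted p = 4.03e-06). Chromosome 11 as a whole was lower, and with chromosome medians removed the log2 difference of Slc16a3 was -0.42 and still passed the threshold.

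Pfkfb3 makes fructose 2,6-bisphosphate, the activator of phosphofructokinase, and is a target of HIF-1 (chromosome 2, 11471433 to 11554077). It had 29.5, 27.9 and 24.8 CPM in sgScr and 57.3, 58.8 and 49.0 CPM in sgPrkci libraries. The groups were far apart and the mean rose 2.01-fold (log2 difference 0.98, SE 0.14, adjusted p = 1.91e-06). Its family member Pfkfb4 had 9.39, 9.84 and 8.86 CPM against 8.67, 8.41 and 10.7 CPM. The groups of Pfkfb4 overlapped (log2 difference -0.02, SE 0.22, adjusted p = 0.954), and the sign turned positive under 5 other scalings or count tests.

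Of the 14 enzymes, 2 were called higher (14.3%), 2 lower (14.3%) and 10 not called, shares that lie near the 11.4% higher and 20.5% lower of all tested genes. Their median log2 difference was 0.11. Hk2, the inducible hexokinase that traps glucose as its 6-phosphate, had 98.9, 105.6 and 113.8 CPM in sgScr and 151.2, 129.8 and 154.5 CPM in sgPrkci libraries. Its groups were apart and it rose 1.37-fold (log2 difference 0.45, SE 0.10, adjusted p = 0.000853). Hk1, the hexokinase of most tissues, had 119.0, 134.8 and 151.3 CPM against 159.2, 134.0 and 147.0 CPM. Its groups overlapped (log2 difference 0.12, adjusted p = 0.385), and with chromosome medians removed it passed at 0.29 (adjusted p = 0.0302). Gpi1, which turns glucose 6-phosphate into fructose 6-phosphate, also had overlapping groups (0.14, adjusted p = 0.235).

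The 3 phosphofructokinases, which catalyse the committed step, differed among themselves. Pfkl, the liver-type subunit, had 103.6, 107.9 and 90.01 CPM in sgScr and 75.1, 74.7 and 64.3 CPM in sgPrkci libraries. All sgPrkci libraries were below all sgScr libraries, and the gene fell by a factor of 1.41 (log2 difference -0.49, SE 0.11, adjusted p = 0.000933). Pfkp, the platelet-type subunit, had 333.6, 325.4 and 339.8 CPM against 375.3, 363.8 and 387.5 CPM. Its groups were also apart, on the higher side, but the difference missed the threshold (log2 difference 0.17, SE 0.08, adjusted p = 0.0893). It passed with 4 other scalings or count tests and with chromosome medians removed, at 0.25 to 0.28. Pfkp shares exon sequence on the opposite strand with Pitrm1, which had 921 reads against its 5811. Pfkm, the muscle-type subunit, had 147 reads in all, overlapping groups and no call (0.11, adjusted p = 0.786), and it shares exon sequence on the opposite strand with Senp1, which had 1477 reads.

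Aldoa, the aldolase that splits fructose 1,6-bisphosphate, had 982.6, 869.7 and 897.3 CPM in sgScr and 1261, 1138 and 1106 CPM in sgPrkci libraries. Its groups were apart and it rose 1.27-fold (log2 difference 0.35, SE 0.07, adjusted p = 0.000394). That call was lost with limma fitted without a variance trend or robust moderation (adjusted p = 0.0718). Eno1, the enolase of most tissues, had 75.1, 67.9 and 64.8 CPM against 57.7, 46.2 and 45.5 CPM. All sgPrkci libraries of Eno1 were below the sgScr libraries, and it fell by a factor of 1.39 (log2 difference -0.47, SE 0.12, adjusted p = 0.00358), a call that DESeq2 did not make. Near-identical 3' end copies are annotated for both genes, 2 for Aldoa (1 in the table) and 4 for Eno1 (2 in the table). With the reads of the copies in the table added the log2 differences were 0.35 and -0.45. Reads lost to the other copies cannot be counted.

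The steps between aldolase and enolase showed no call. Tpi1, the triose phosphate isomerase, had a log2 difference of -0.05 (adjusted p = 0.735), Pgk1, the first ATP-making kinase, 0.02 on 135 reads in all (adjusted p = 0.956), and Pgam1, the phosphoglycerate mutase, 0.18 (adjusted p = 0.465). Gapdh, the dehydrogenase of that stretch, had 26.5, 34.8 and 37.9 CPM in sgScr and 46.0, 35.5 and 41.6 CPM in sgPrkci libraries, with a log2 difference of 0.31 (SE 0.15, adjusted p = 0.116). Its groups overlapped through sgPrkci replicate 2. The value of Gapdh is uncertain, since 88 near-identical copies of its 3' end are annotated and 75 of them are in the table, with 366 reads beside its own 607. With the reads of the copies added, the log2 difference of Gapdh was 0.28 (adjusted p = 0.101).

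The last steps of the pathway did not pass the test either. Pkm, the pyruvate kinase, had 893.4, 924.2 and 952.5 CPM in sgScr and 1012, 939.2 and 1020 CPM in sgPrkci libraries (log2 difference 0.10, SE 0.07, adjusted p = 0.288). Ldha, which turns pyruvate into lactate and is a standard HIF-1 target, had 1175, 1240 and 1182 CPM against 1183, 1150 and 1210 CPM. Its groups overlapped throughout, with a log2 difference of -0.02 (SE 0.07, adjusted p = 0.84). That difference was between -0.08 and 0.08 over the alternatives run. Near-identical copies of the 3' end are annotated for Ldha (5, with 0 in the table) and for Pkm (1, with 0 reads). Gpi1 and Tpi1 each have 1 annotated copy, with 0 in the table. Reads lost to copies thus cannot be counted for Ldha, Gpi1 or Tpi1.

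Targets and enzymes were then set side by side, without a test, since the genes were chosen with results known. Of 13 targets, 6 were higher and 0 lower by limma, which called 11.4% of all tested genes higher and 20.5% lower. At an unadjusted p under 0.05, 7 were higher and 1 lower, a threshold at which all tested genes were not counted. Both edgeR (which called 15.9% of all tested genes higher and 14.9% lower) and DESeq2 (11.7% higher and 9.17% lower) called 7 targets higher and 0 lower. Of 14 enzymes, limma called 2 higher and 2 lower. The median log2 difference was 0.27 over the targets and 0.11 over the enzymes, beside -0.11 over all tested genes. In the 3 sgScr libraries the mean log2(CPM + 1) over the targets was 6.82, 6.85 and 6.88, and in the 3 sgPrkci libraries it was 7.20, 7.17 and 7.17. Over the enzymes it was 6.94, 6.96 and 6.93 in sgScr and 7.12, 6.92 and 6.98 in sgPrkci libraries. The targets' means were apart between the groups, while the enzymes' overlapped, sgPrkci replicate 1 being the high one.

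Within a library, the mean over targets minus the mean over enzymes was -0.12, -0.11 and -0.05 in sgScr and 0.07, 0.25 and 0.18 in sgPrkci organoids. The group means were -0.09 ± 0.04 and 0.17 ± 0.09 (SD, n = 3 each), a difference of 0.26, and the groups did not overlap. These means weigh the largest rises, Egln3 (1.33), Ndrg1 (0.66) and Ero1l (0.63), while the other targets reached 0.35 at most. The difference between the medians of the 2 lists was smaller, 0.155. The balance between the lists, unlike either list's level, moves little when a whole library is scaled. An exact permutation test of 3 libraries against 3 cannot give a p below 0.1 and was not run. The count of enzymes depended on scaling. With TMM factors, median-of-ratios factors or edgeR, 6 enzymes were higher (Gpi1, Pfkp, Gapdh and Pkm beside Hk2 and Aldoa), where the share of all tested genes called higher was 15.7%, 15.8% and 15.9%. Targets called higher ranged over scalings and tests from 3 to 9. The 3 came with limma fitted without a variance trend or robust moderation (8.15% of all tested genes higher). The 9 came with chromosome medians removed (13.2% higher).

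**Figure D3:**
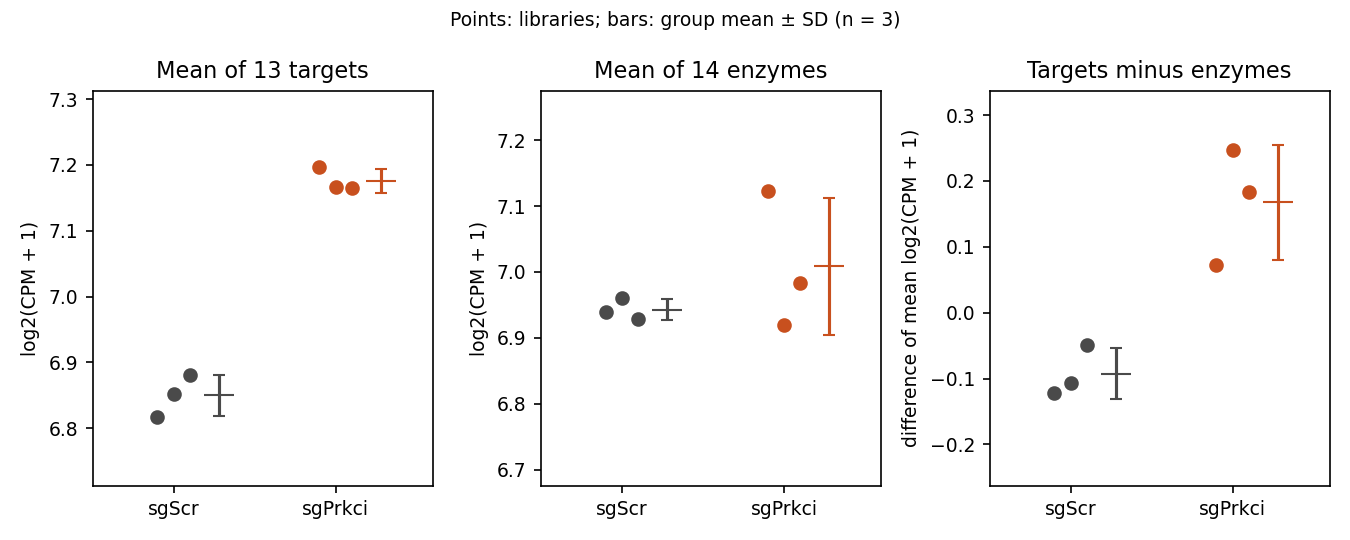
Mean log2(CPM + 1) over the 13 targets and over the 14 enzymes, and their difference, in each library, on panels of equal span. The targets are 6.82 to 6.88 in sgScr and 7.17 to 7.20 in sgPrkci libraries, while the enzymes overlap between the groups.

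**Figure D4:**
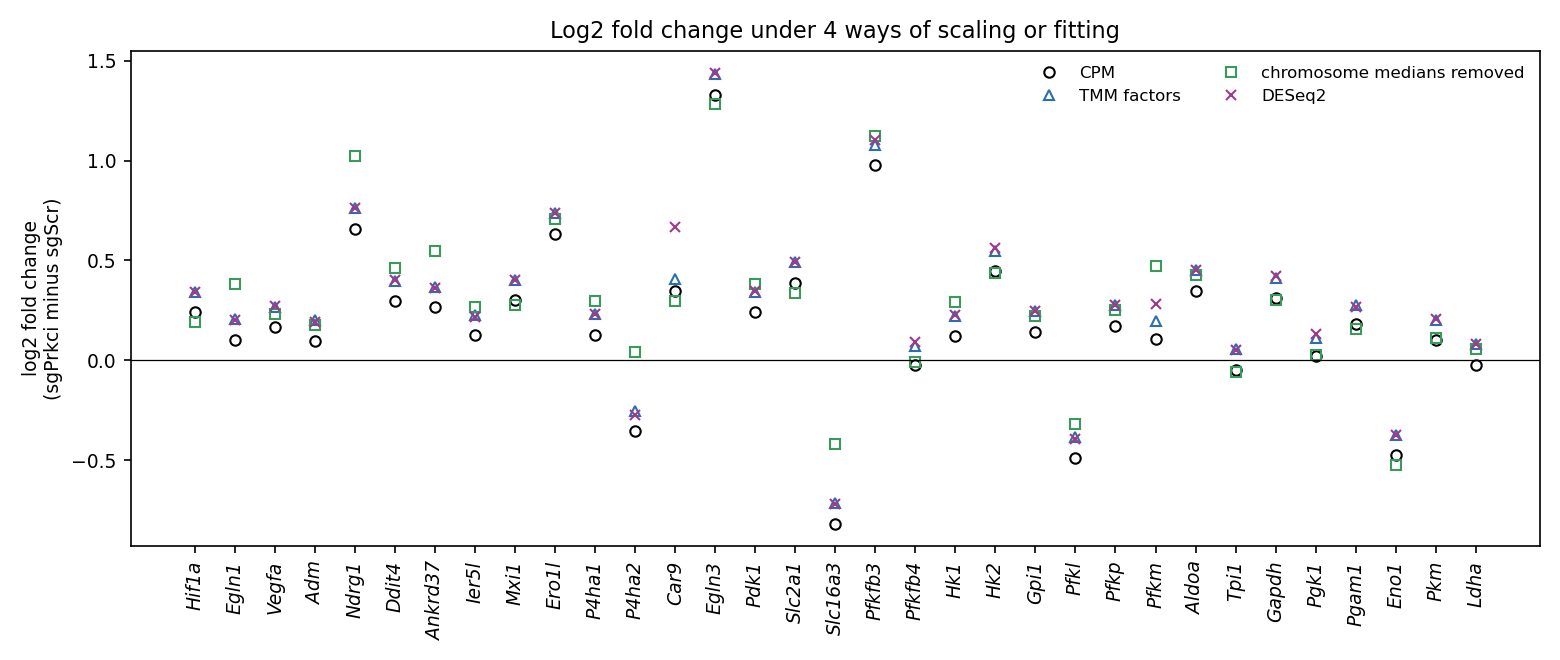
Log2 difference (sgPrkci minus sgScr) of each of the 33 members under 4 ways of scaling or fitting. Most symbols of a gene lie close together, TMM factors and DESeq2 above CPM; P4ha2 crosses 0 with chromosome medians removed, and Tpi1, Ldha and Pfkfb4 lie around 0.

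The ratio of related genes within a library also does not depend on how libraries are scaled. Each is given as a log2 ratio of CPM. Only its change between groups is read, since tags of different genes are not counted with equal efficiency. Over all tested genes taken singly, 43.0% had groups apart, and no such share was taken over ratios of gene pairs. A ratio that holds a called member (Hk2, Pfkl, Pfkfb3, Egln3 or Slc16a3) carries the difference already given for that gene. Hk2 over Hk1 was -0.34 ± 0.07 in sgScr and -0.02 ± 0.08 in sgPrkci organoids (SD, n = 3 each, as below), and the groups did not overlap. Pfkp over Pfkl moved from 1.73 ± 0.17 to 2.40 ± 0.17, also apart. Pfkfb3 over Pfkfb4 moved from 1.55 ± 0.09 to 2.58 ± 0.33. Both ratios were higher in every sgPrkci library than in any sgScr library. Pfkm over Pfkl overlapped, because sgPrkci replicate 2 was at -3.62 beside -3.57 to -3.61 in the sgScr libraries.

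Among the hydroxylases, Egln3 over Egln1 moved from 1.18 ± 0.20 to 2.41 ± 0.14, with the groups apart. P4ha2 over P4ha1 went from -0.82 ± 0.41 to -1.31 ± 0.04, with all sgPrkci libraries below the sgScr libraries, and sgScr replicate 1 (-1.24) close to them. Slc16a3 was compared with Slc16a1, which encodes the lactate carrier MCT1. That ratio went from -1.35 ± 0.14 to -2.07 ± 0.24, with the groups apart. A ratio does not remove differences between chromosomes. Median log2 differences of genes at 10 CPM or more were -0.40 on chromosome 11 (P4ha2, Slc16a3) and -0.04 on 3 (Slc16a1). They were -0.17 on 10 (P4ha1, Pfkl), 0.05 on 12 (Egln3) and -0.28 on 8 (Egln1). For Pfkfb3 (-0.14 on chromosome 2) over Pfkfb4 (-0.01 on 9) and Pfkm (-0.37 on 15) over Pfkl the medians differed opposite to the ratio. The part of chromosomes in the ratios was not tested.

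**Figure D5:**
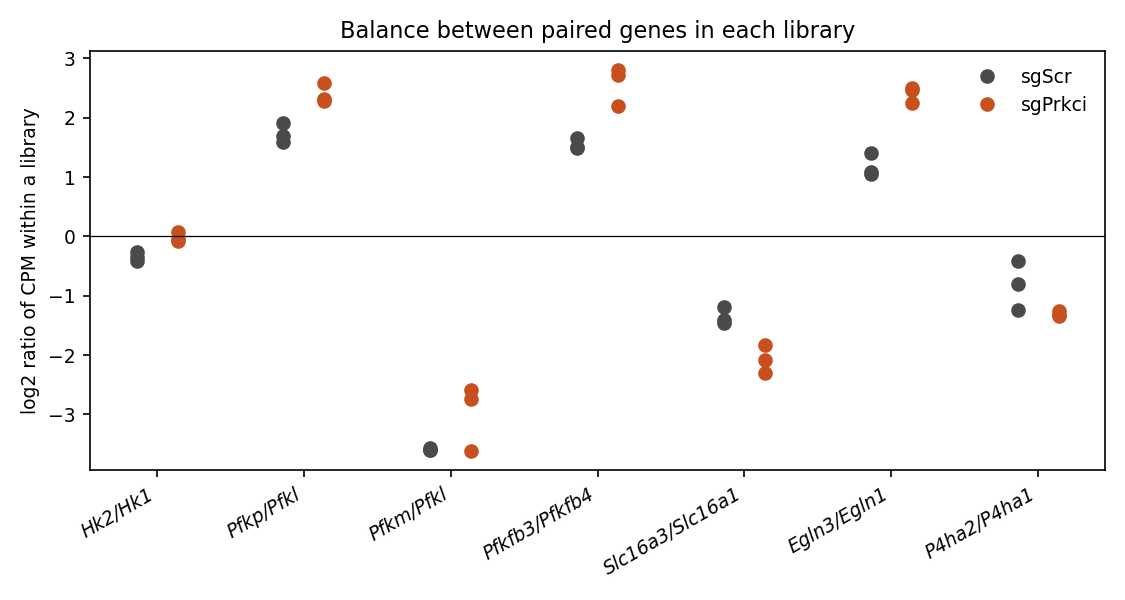
Log2 ratio of CPM between related genes in each library, with 3 sgScr and 3 sgPrkci points per ratio. The groups are apart for all ratios shown except Pfkm over Pfkl, and the shift of Egln3 over Egln1, from 1.18 to 2.41, is the widest. Of all tested genes taken singly 43.0% were apart, and no share was taken over gene pairs.

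Of 13 tested genes that complete the HIF axis, 4 were higher (30.8%) and 2 lower (15.4%), with a median log2 difference of 0.16. Over all tested genes 11.4% were higher and 20.5% lower. With TMM factors, median-of-ratios factors, edgeR and DESeq2, 4 were higher and 0 lower. Those fits called 11.7% to 15.9% of all tested genes higher and 9.17% to 14.9% lower. Epas1, the HIF-2 alpha subunit, had 58.0, 55.1 and 74.8 CPM in sgScr and 102.6, 110.2 and 91.6 CPM in sgPrkci libraries, apart in every library (log2 difference 0.70, adjusted p = 3.57e-05). Cited2, which competes with HIF alpha for the coactivators CBP and p300, had 13.7, 17.4 and 22.3 CPM against 40.4, 39.7 and 37.6 CPM (1.12, adjusted p = 5.33e-06). Hif3a, whose products include an inhibitor of the other alpha subunits, had 0 reads in the sgScr and 19 in the sgPrkci libraries. Taking the sgScr group at a floor of 3 reads in all, it was at least 7.37-fold higher. Only its sgPrkci libraries carried Hif3a past the filter on low values, which favored a higher call. With a filter at 5 CPM, which Hif3a did not pass, 3 genes of the axis were higher and 2 lower. At that filter 13.6% of all tested genes were higher and 24.3% lower. Elob, a subunit of the VHL ligase, also rose (0.23, adjusted p = 0.041). The genes that fell were Rbx1, another subunit of that ligase (-0.40, adjusted p = 0.0101), and Ep300 (-0.24, adjusted p = 0.0479), both on chromosome 15. With chromosome medians removed Rbx1 had -0.03 and Ep300 0.13, and neither was called. In the 4 fits that left 0 lower, the adjusted p ran from 0.0507 to 0.161 for Rbx1 and from 0.286 to 0.464 for Ep300. The calls on Elob and Ep300 were lost without any of 5 single libraries, and that on Rbx1 without sgScr replicate 2 or sgPrkci replicate 2.

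Of 26 tested HIF targets outside the members, 9 were higher (34.6%) and 2 lower (7.69%), with a median log2 difference of 0.16. Over all tested genes 11.4% were higher and 20.5% lower. Pnrc1, a nuclear receptor coactivator, went from 84.6 ± 19.8 to 213.9 ± 16.9 CPM (SD, n = 3 each; log2 difference 1.35, adjusted p = 8.97e-08). Bnip3, a mitophagy receptor, had 595.1, 544.6 and 556.4 CPM in sgScr and 793.2, 782.3 and 764.6 CPM in sgPrkci libraries (0.46, adjusted p = 8.83e-06). Both genes were apart between groups, as was the repressor Bhlhe40 (0.44, adjusted p = 0.000323). The others that rose were Kdm3a, Bhlhe41, Fam162a, Selenbp1, Prelid2 and Car12, the last on 2 and 11 reads. Only its sgPrkci libraries carried Car12 past the filter on low values, which favored a higher call. With a filter at 5 CPM, which Car12 did not pass, 8 of these targets were higher and 1 lower. At that filter 13.6% of all tested genes were higher and 24.3% lower. Stc2, a secreted glycoprotein, fell from 78.8 ± 13.9 to 34.6 ± 5.30 CPM (-1.16, adjusted p = 1.55e-07), and the collagen lysyl hydroxylase Plod1 fell too (-0.87, adjusted p = 0.0265). The calls on Plod1 and Prelid2 were each lost without any of 4 single libraries, and that on Car12 without any of 5. Plod1 was called by neither edgeR nor DESeq2, and Car12 was not called by DESeq2.

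Genes around the main glycolytic chain were counted in the same way. Each count below at an adjusted p under 0.05 stands beside 11.4% higher and 20.5% lower of all tested genes by limma. At an unadjusted p under 0.05 all tested genes were not counted. Of 12 tested glycolysis genes outside the members, 0 were higher and 1 was lower by limma (at an unadjusted p under 0.05, 0 higher and 2 lower), with a median log2 difference of -0.18. The gene was Eno3, the muscle-type enolase on chromosome 11, with 8.38, 13.5 and 15.2 CPM in sgScr and 2.64, 2.80 and 0.710 CPM in sgPrkci libraries (-2.18, adjusted p = 2.43e-06). Of 11 tested genes for the entry of pyruvate into mitochondria, the pyruvate dehydrogenase phosphatase Pdp1 rose (0.63, adjusted p = 0.0304) and the kinase Pdk3 fell (-0.41, adjusted p = 0.0261). Of 4 tested genes of gluconeogenesis, Pcx, the pyruvate carboxylase, rose from 10.9 ± 2.45 to 30.7 ± 10.1 CPM (1.39, adjusted p = 5.11e-06). Pck2, the mitochondrial PEP carboxykinase, fell from 78.4 ± 4.79 to 44.2 ± 0.710 CPM (-0.81, adjusted p = 2.6e-06), as did Fbp2 (-0.43, adjusted p = 0.0181). The call on Fbp2 was lost without sgScr replicate 2 or sgPrkci replicate 2, that on Pdk3 without any of 4 single libraries and that on Pdp1 without any of 5. Neither Pdk3 nor Fbp2 was called with TMM factors, median-of-ratios factors, edgeR or DESeq2, and DESeq2 did not call Pdp1.

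Of 7 genes of the pentose phosphate pathway, which branches from glucose 6-phosphate, 0 were higher and 2 lower. Over all tested genes 11.4% were higher and 20.5% lower. The counts were the same at an unadjusted p under 0.05, a threshold at which all tested genes were not counted. Pgd, the 6-phosphogluconate dehydrogenase, was lower in every sgPrkci library (log2 difference -0.27, adjusted p = 0.0258). Tkt, the transketolase, had -0.27 (adjusted p = 0.0351) with overlapping groups, since sgPrkci replicate 1 was at 505.0 CPM beside 482.3 to 502.9 CPM in sgScr libraries. Neither was called with TMM factors, median-of-ratios factors, edgeR or DESeq2, and leaving out 1 library removed the call on Pgd for 4 libraries and on Tkt for 5.

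Facts of the whole series bear on these values. The libraries held 2141125 to 3048170 reads, and in bulk RNA fewer cells of a type and less RNA per cell cannot be told apart. Prkci itself was 54.9 ± 8.60 CPM in sgScr and 52.4 ± 4.99 CPM in sgPrkci organoids (log2 difference -0.06, adjusted p = 0.774), and a 3' tag does not check an edit in the coding sequence. Of 8 epithelial markers all 8 were tested, with 2 higher and 3 lower, and their summed level was 3431 to 3981 CPM in sgScr and 3690 to 4091 CPM in sgPrkci libraries. Summed fibroblast markers reached 2.35 CPM at most, endothelial markers 0.335 CPM with 2 of 3 at 0, and immune markers 5.25 to 7.71 CPM in sgScr and 7.94 to 12.4 CPM in sgPrkci libraries, where Cd68 rose. Hepatocyte markers were 1.97 to 16.1 CPM in sgScr and 0.355 to 1.13 CPM in sgPrkci libraries, and this was almost all Apoa1, which intestinal epithelium also makes and which fell on 69 and 5 reads, while Alb had 1 read in all and Ttr and Cyp3a11 had 0. All 4 markers of dividing cells fell, from a summed 1803 to 1910 CPM to 1136 to 1182 CPM, and their part in the results on HIF targets and enzymes was not tested. Medians by chromosome differed, from -0.31 for chromosome 11 and -0.28 for chromosome 15 to 0.27 for chromosome 1 relative to all genes at 10 CPM or more, and 6 members lie on chromosomes 8, 11 and 15 (Egln1, Ankrd37, P4ha2, Slc16a3, Ndrg1 and Pfkm). Removing chromosome medians took out the medians themselves, -0.40 for chromosome 11 and -0.37 for chromosome 15. It thus also removed the downward shift over all genes, which raised the log2 differences on most chromosomes.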

How the data were processed

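The authors deposited 1 table of CPM values (reads scaled to a common total) per Ensembl gene for 6 QuantSeq 3' tag libraries from mouse tumor organoids, 3 sgScr and 3 sgPrkci. Per the submitters' processing notes the genome build was GRCm38. With aligner, counter, strand setting and use of molecular identifiers not given in the sources used here, counting could not be checked. Each of the 124536 deposited CPM values was a whole multiple of 1 read (100%, tolerance 1e-06 reads), so reads were recovered: 2141125 to 3048170 per library, with 1 read worth 0.328 to 0.467 CPM. Mitochondrial genes took 11.7% to 13.9% of reads and the ribosomal repeat gene Gm42418 10.1% to 12.4%.

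Replicate numbers follow accession order and pair nothing. Gene names and positions came from GENCODE on GRCm38 (81 IDs had no entry), promoters from RefSeq. The main test was limma 3.58.1 (R 4.3.3) with trended variance and robust moderation of the variances, on log2(CPM + 1). It covered 12195 genes at 1 CPM or more in at least 3 libraries, with Benjamini-Hochberg adjustment and a threshold of 0.05. Fold changes on that scale understate those of low genes. The groups held 3 libraries each. A p-value sets a difference against the spread between these libraries, moderated by that of the other tested genes. It does not cover variation between guides or lines. On simulated counts for this comparison (12239 genes, 200 changed) recovery was 40.9% for genes changed 1.5-fold, 68.8% for genes changed 2-fold and 98.4% for genes changed 4-fold, and unchanged genes made up 3.60% of the calls. These rates need not hold for the real data. The simulation gave all genes the same dispersion (0.00595) and changed few genes, whereas 31.8% of real tested genes were called. The 19 alternatives included TMM and median-of-ratios factors, quantile normalization, other filters and pseudocounts, and limma without a trend or robust moderation. They also included edgeR 4.0.16 and DESeq2 1.42.0 on the recovered reads, removal of chromosome medians and each library left out. Copies were transcripts with at least 200 bases at 95% identity or more in the last 500 bases; adding their reads was an alternative chosen after seeing the data. The members and the lists beside them were chosen with earlier results of these data known. By rule, the genes named are all members, Prkci, and of each other list the called genes, up to 4 with the lowest p, or all where a count is 5 or fewer; the remaining called HIF targets were named after their values were seen. Sequences shown are promoters of the called members with the largest rise (3) and fall (2) that have an entry.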

Additional observations from a re-analysis of the deposited data

How the results depend on the processing

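Over 19 alternatives, 8 members (Ndrg1, Ero1l, Egln3, Hk2, Pfkl, Slc2a1, Slc16a3 and Pfkfb3) stayed past the threshold in all that were run. Leaving out 1 library at a time gave 2852 to 3794 genes called in all, and 4 to 6 targets higher and 0 to 1 lower. Those fits called 8.95% to 11.2% of all tested genes higher and 14.4% to 19.9% lower. The median over targets minus the median over enzymes was then 0.10 to 0.17.

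DESeq2 called 2540 genes. Limma without a trend or robust moderation called 3 targets and 1 enzyme higher, and 3 of the HIF axis and 7 of the other HIF targets. That fit called 23.4% of all tested genes, 8.15% higher. Enzymes called higher were 6 with TMM factors, 6 with median-of-ratios factors, 6 with edgeR, 4 with DESeq2 and 4 with chromosome medians removed. In those fits 15.7%, 15.8%, 15.9%, 11.7% and 13.2% of all tested genes were higher. DESeq2 called 1 enzyme lower, beside 9.17% of all tested genes. P4ha2 made 1 target lower with no filter (12.7% of all tested genes lower) and with a filter at 5 CPM (24.3% lower). Removing chromosome medians gave 2 calls among other glycolysis genes. Pyruvate entry genes had 1 call with TMM factors, median-of-ratios factors, quantile normalization, edgeR and chromosome medians removed. They had 0 with limma without a trend or robust moderation and with DESeq2. Pentose phosphate genes had 0 calls with TMM factors, median-of-ratios factors, edgeR, DESeq2 and limma without a trend or robust moderation. They had 1 with chromosome medians removed. Of all tested genes 30.6% were called with TMM or median-of-ratios factors, 29.8% with quantile normalization and 30.8% with edgeR. The share was 20.8% with DESeq2 and 26.5% with chromosome medians removed. The causes were not tested.

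Signs turned, none of them with a call after turning, for Tpi1 (0.057 with TMM or median-of-ratios factors, 0.051 with edgeR or DESeq2), Ldha (0.081 with TMM factors, 0.082 with median-of-ratios factors, edgeR or DESeq2, 0.0558 with chromosome medians removed) and Pfkfb4 (0.071 with either set of factors, 0.14 with quantile normalization, 0.094 with edgeR, 0.092 with DESeq2). With chromosome medians removed they turned for P4ha2 (0.043) and Ep300 (0.13). With 1 library left out the log2 difference ran from -0.0095 to 0.17 for Egln1, -0.028 to 0.23 for Ier5l, -0.11 to 0.36 for Pfkm, -0.16 to 0.028 for Tpi1, -0.12 to 0.15 for Pgk1, -0.040 to 0.0028 for Ldha and -0.12 to 0.036 for Pfkfb4. ACGTG alone was in 56.25% of member promoters. Depth limits the genes with few reads most, such as Car9, with 11 and 14 reads in the groups. No paired analysis was possible because the replicate numbers follow accession order and pair nothing.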
